A study of Mus musculus with 6 samples.

Results

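Genes of immune checkpoint and co-stimulatory signalling, 10 in all, were followed in bone marrow-derived macrophages (BMDMs) with and without macrophage PKM2. They were chosen by symbol. The list holds 8 genes of the B7 family (Cd274, Pdcd1lg2, Cd80, Cd86, Cd276, Icosl, Vsir and Vtcn1), together with Cd40, a TNF receptor family member, and Havcr2, the gene of Tim-3, which belong to other families. Of the 10 symbols, 9 had a row among the 23935 genes of the tables, and all 9 of these were among the 16516 genes tested. Transcripts of Vtcn1 were not analysed here, and it enters only where promoters are counted. The 6 libraries came from BMDMs of 3 PKM2ΔMAC mice and 3 PKM2FL/FL mice, with the mice numbered 1 to 3 in each genotype. PKM2ΔMAC mice carry the floxed PKM2 allele and LysM-Cre, a Cre recombinase that is placed in the Lyz2 locus and is active in myeloid cells. PKM2FL/FL mice are littermates that carry the floxed allele without Cre, so both genotypes share that allele, and an effect of the Cre insertion cannot be told apart from one of the Pkm deletion. Bone marrow of femur and tibia was grown with M-CSF for 7 days, and all cultures were labelled as primed for 16 h with 10 ng/mL LPS, a bacterial outer membrane component, and 25 ng/mL IFN-γ. The donors' age is not given for these cultures, and no unprimed library was analysed here, so a response to priming cannot be measured in these data. With 1 library per mouse, p-values measure the spread between these mice.

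B7 ligands are membrane proteins with immunoglobulin domains that antigen-presenting cells hold out to T cells. CD80 and CD86 bind CD28, which lowers the threshold of T cell activation, and CTLA-4, which restrains it, while PD-L1 (Cd274) and PD-L2 (Pdcd1lg2) engage the inhibitory receptor PD-1. In macrophages, PD-L1 is induced by interferons through JAK kinases and IRF1, and hypoxia-inducible factors and NF-κB also act on its gene. PKM2 is a pyruvate kinase isoform with a reported role in the pro-inflammatory activation of macrophages, and it has been linked to HIF-1α activity. The comparison asks whether transcripts of these checkpoint genes differ between BMDMs with and without it.

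Promoter sequences are shown for Cd276, the member with the largest difference between genotypes, and for Cd274, the gene of PD-L1. Both were taken from RefSeq on GRCm38.p6, from 250 bases before to 50 bases after the start of the gene, and are written 5′ to 3′ on the strand of the gene. Capitals mark the letters ACGTG or GCGTG on either strand, the core of the element bound by hypoxia-inducible factors. The Cd276 promoter lies at chr9:58554984-58555283 on the minus strand and the Cd274 promoter at chr19:29367188-29367487 on the plus strand. Positions are counted from the RefSeq start. For Cd276 that start lies inside the GENCODE gene span given with its values, downstream of the GENCODE start, so its window is within that span.
Cd276: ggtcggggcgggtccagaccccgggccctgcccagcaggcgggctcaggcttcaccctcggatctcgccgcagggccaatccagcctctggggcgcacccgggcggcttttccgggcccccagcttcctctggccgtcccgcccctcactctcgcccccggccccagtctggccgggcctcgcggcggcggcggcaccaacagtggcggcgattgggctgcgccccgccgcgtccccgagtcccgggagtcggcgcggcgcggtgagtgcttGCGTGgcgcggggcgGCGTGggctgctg
Cd274: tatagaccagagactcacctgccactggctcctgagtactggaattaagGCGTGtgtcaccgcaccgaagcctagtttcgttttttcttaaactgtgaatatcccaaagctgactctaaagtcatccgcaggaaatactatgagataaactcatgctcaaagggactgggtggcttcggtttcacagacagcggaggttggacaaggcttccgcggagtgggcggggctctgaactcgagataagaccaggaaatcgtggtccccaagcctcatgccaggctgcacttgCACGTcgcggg
Each of these windows held 2 hypoxia cores. Those of Cd276 began 23 and 38 bases after the start, and those of Cd274 lay 201 bases before the start and at base 40 after it. The letters were common, since 43.8% of 32851 RefSeq promoters of the same length held at least 1 core, and Havcr2 was the only other member with one (1 core) among the 8 members with an entry. Base composition set the pair apart. The Cd276 window was 78.3% G and C with 39 CG steps, against 52.7% with 15 CG steps for Cd274, and the median of all promoters was 52.7% with 7 CG steps. The interferon-stimulated response element, searched on both strands as GAAA, any 2 bases and GAAA, occurred in 3.4% of promoters and in none of the 8 windows. A κB motif occurred in 8.5% of promoters, and among the members in those of Icosl and Pdcd1lg2, once each. Cd40 and Cd86 were not matched. These matches describe letters in a window of 300 bases and say nothing of binding.

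The libraries held between 49957449 and 54524651 counts, at which 3 counts, the most that a count of 0 allows, correspond to 0.0546 to 0.0604 CPM (counts scaled to a common library total, here also scaled by TMM factors of 0.980 to 1.04). This floor covers counting error only. The targeted gene followed the labels. Pkm, whose reads include the PKM1 and PKM2 isoforms together, stood at 1714, 1698 and 1705 CPM in the 3 PKM2FL/FL libraries. In those of PKM2ΔMAC it stood at 987, 1212 and 1005 CPM, a mean of 62.6% of the control mean. Its log2 fold change was -0.68 ± 0.08 (SE), with an edgeR adjusted p of 0.00913. Pkm kept its direction in all 17 alternatives but did not pass in 7, those on TPM and those without a PKM2FL/FL library. Lyz2, the locus of the Cre, averaged 17820 ± 860 CPM (SD, n = 3) in controls without Cre, as against 28.4 ± 3.80 CPM (n = 3) with Cre. The latter is 0.1595% of the control mean, so the genotypes differ in Lyz2 transcript as well as in Pkm. The macrophage markers Adgre1 and Csf1r were abundant in every library, while Marco of the same list was low, at 0.5675 to 2.89 TPM. Over 10 markers the summed level was 8460 to 8790 TPM in PKM2FL/FL and 8940 to 9890 TPM in PKM2ΔMAC. With TPM recalculated without Lyz2, which takes up part of that scale in controls, it was 8900 to 9240 and 8950 to 9890 TPM. TPM, a share of all transcripts, is a level per transcript length. Of the 10 macrophage markers 1 was called, Itgam, the gene of CD11b, which rose by 0.43 on the log2 scale (edgeR adjusted p = 0.00272). Over all genes edgeR called 0.412%. Adgre1, the gene of F4/80, had a fold change of 0.26 (edgeR adjusted p = 0.236). It was called by DESeq2 (adjusted p = 0.0383) and by edgeR without PKM2ΔMAC replicate 2 (0.18, adjusted p = 0.0414). Dendritic cell markers summed to 5.88 to 7.30 TPM over 10 genes in all 6 libraries.

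The priming label was compared with genes that LPS and IFN-γ are known to induce. Transcripts of Nos2 (2 to 26 counts per library), Il6 (7 to 18 counts) and Il12b (2 to 6 counts) were near the floor in libraries labelled as primed, and Il1b was between 3.24 and 5.90 TPM. Of the interferon-γ response genes, Cxcl9 was between 0.499 and 1.15 TPM and Cxcl10 between 3.90 and 9.41 TPM, while the class II genes Cd74 (1876 to 3602 TPM), H2-Eb1 (348 to 693 TPM) and H2-Ab1 (270 to 566 TPM) were the most abundant. The most abundant LPS response genes were Cd14 (727.5 to 1049 TPM), which macrophages also make at rest, Tnf (23.2 to 45.3 TPM) and Il10 (8.59 to 19.8 TPM). Nos2, Il6, Il12b, Il1b, Cxcl9 and Cxcl10 were singled out after their values were seen. None of 21 interferon-γ response genes and none of 14 tested LPS response genes passed the test between genotypes in edgeR. Over all genes edgeR called 0.412%. At an unadjusted p under 0.05 there were 0 and 1 genes of these lists, against 9.83% of all genes. DESeq2 also called 0 in both lists, while without PKM2ΔMAC replicate 2 edgeR called 1 in each, Ciita (-0.37, adjusted p = 0.00254) and Acod1 (-0.97, adjusted p = 0.0424). With no unprimed library to compare, it is uncertain from these values whether the sequenced cultures were primed as labelled, and the levels of the checkpoint genes are those of libraries labelled LPS/IFN-γ.

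**Figure D1:**
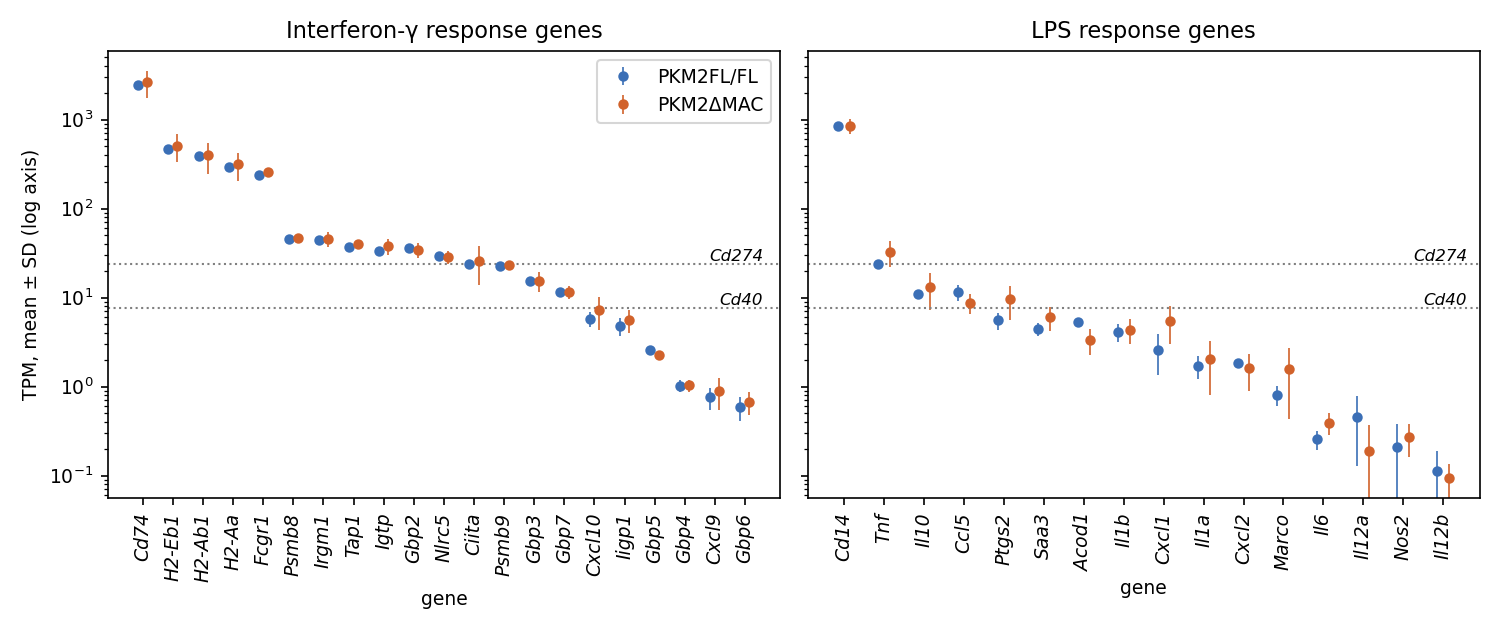
Mean TPM ± SD (n = 3 per genotype, log axis) of 21 interferon-γ response genes and 16 LPS response genes, with dotted lines at the mean TPM of Cd274 and Cd40 over the 6 libraries. Means of the genotypes lie close together for most genes, and Il6, Nos2 and Il12b are among the lowest LPS response genes, all below 1 TPM.

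Of the 9 members, Cd276 was the only one that passed the test across all genes, and it fell in PKM2ΔMAC BMDMs to 52.5% of the PKM2FL/FL level. The other 8 did not pass, and their fold changes ranged from -0.28 (Cd80) to 0.09 (Pdcd1lg2) on the log2 scale. In all, 7 members had a fold change below 0 and 2 above it, with a median of -0.12, while the median over all 16516 tested genes was -0.0002. The background is low, since 68 genes were called at an adjusted p under 0.05 (0.412%), of which 21 (0.127%) were lower and 47 (0.285%) higher in PKM2ΔMAC. A weaker criterion, CPM ranges of the genotypes that do not overlap, was met by Cd276 alone among the members and by 17.2% of all genes, 8.32% in the direction of a lower level in PKM2ΔMAC.

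**Figure D2:**
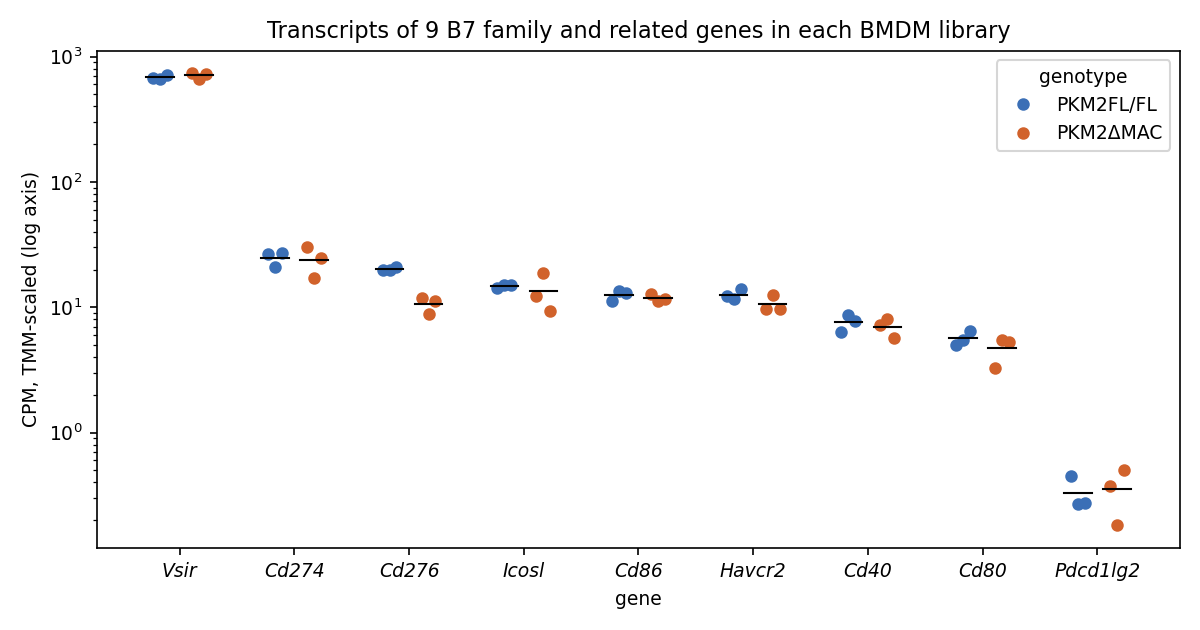
CPM (TMM-scaled, log axis) of 9 checkpoint and co-stimulatory genes in each of 6 BMDM libraries, with bars at the mean of each genotype (n = 3). Vsir stands far above the others, Pdcd1lg2 far below, and Cd276 is the gene whose points separate by genotype.

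Cd276 encodes B7-H3, a B7 protein with both inhibitory and stimulatory effects reported on T cells and a receptor that is not settled, which fibroblasts, tumour cells and myeloid cells express. The gene lies at chr9:58524298-58555437 on the minus strand of GRCm38. In PKM2FL/FL libraries 1 to 3 it was at 20.0, 19.7 and 21.0 CPM. In PKM2ΔMAC libraries 1 to 3 it was at 11.8, 8.83 and 11.2 CPM. All 3 PKM2ΔMAC libraries were thus below every PKM2FL/FL library, and the lowest was replicate 2. These values average to 20.2 ± 0.695 CPM (SD, n = 3) for controls and to 10.6 ± 1.57 CPM (n = 3) for PKM2ΔMAC, resting on 1021 to 1067 counts per PKM2FL/FL library and 485 to 626 per PKM2ΔMAC library. Its log2 fold change was -0.93 ± 0.11 (SE), with a 95% interval from -1.18 to -0.68 (edgeR quasi-likelihood test, Benjamini-Hochberg adjusted p = 0.00935). An exact permutation test of this gene alone, two-sided, gave p = 0.10, the smallest that 3 against 3 libraries allow. The call rested on all PKM2FL/FL libraries being present: without PKM2FL/FL replicate 1, 2 or 3 the fold change was -0.94, -0.95 and -0.90, and the edgeR adjusted p became 0.0742, 0.0754 and 0.110. Leaving out a PKM2ΔMAC library kept the call, with adjusted p between 0.000326 and 0.0172. In bulk RNA, fewer cells that express a gene and less of its RNA per cell cannot be told apart.

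**Figure D3:**
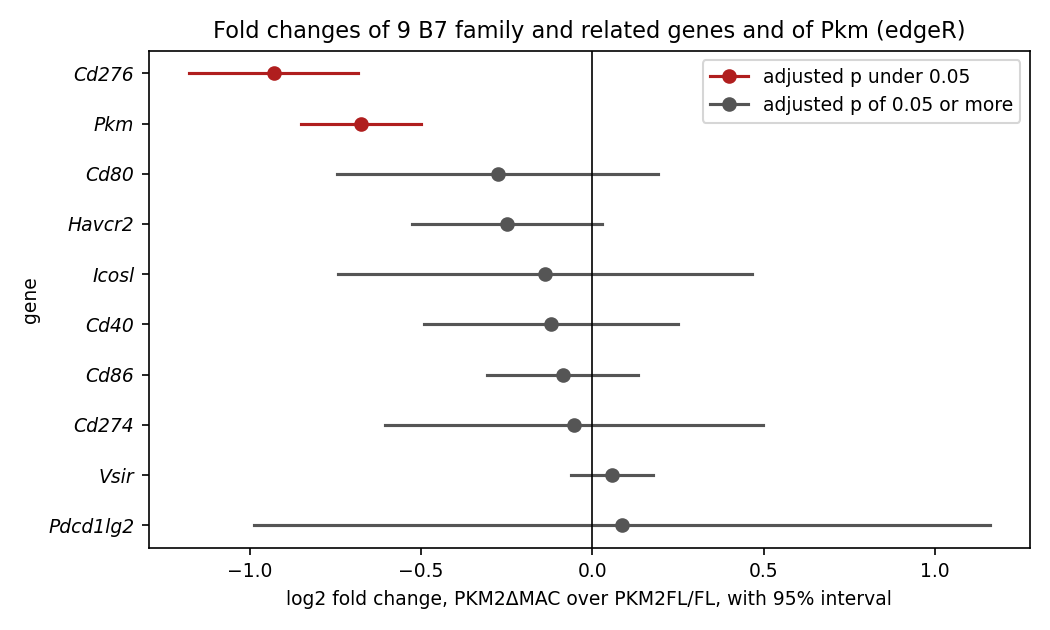
Log2 fold change (PKM2ΔMAC over PKM2FL/FL) with its 95% interval for 9 checkpoint and co-stimulatory genes and for Pkm, from the edgeR fit across all genes. The intervals of Cd276 and Pkm lie wholly below 0, and those of the other 8 genes include 0.

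Markers of other cell types were read beside the fall of Cd276. Stromal cell markers, which include collagen genes of fibroblasts, summed to 1950 to 2230 TPM over 6 genes in PKM2FL/FL and 2160 to 2620 TPM in PKM2ΔMAC, with 5 of 6 genes higher in PKM2ΔMAC and 0 called by edgeR (1 at an unadjusted p under 0.05, 0 called by DESeq2, and 1, Col1a1, called by edgeR without PKM2ΔMAC replicate 2). The most abundant was Col1a1, at 1157 ± 102 and 1434 ± 169 TPM (n = 3 each). Col3a1 was the marker with a fold change below 0 (-0.15), and PKM2ΔMAC replicate 2, the library with the lowest Cd276, had a stromal sum of 2160 TPM, within the range of the controls. Their part in the result was not tested. Neutrophil markers summed to 68.6 to 168 TPM in PKM2FL/FL and 323 to 659 TPM in PKM2ΔMAC, with all 8 genes higher and 0 called by edgeR. Of them 5 were at an unadjusted p under 0.05, DESeq2 called 5, and edgeR with a replicate block called 1, S100a8. Over all genes, 9.83% were at an unadjusted p under 0.05, edgeR called 0.412%, and DESeq2 called 302 genes. The part of the neutrophil markers in the result was not tested either. B cell markers summed to 16.5 to 21.9 and 19.4 to 25.7 TPM, T and NK cell markers to 2.11 to 3.36 and 0.534 to 2.23 TPM, and mast cell and basophil markers to 8.49 to 15.7 and 5.16 to 21.4 TPM. No marker of any list was at 0 in all 6 libraries. Sums in TPM are on a scale that Lyz2 moves between genotypes, as given with Vsir. With TPM recalculated without Lyz2, the stromal sums were 2050 to 2340 TPM in controls and 2160 to 2620 TPM in PKM2ΔMAC, and the neutrophil sums 71.8 to 177 TPM and 323 to 659 TPM.

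Cd276 and the targeted gene are on the same chromosome, with 1100931 bases between Cd276 and Pkm (chr9:59656368-59679375). Of the 45 genes in the tables that start within 2 Mb of Pkm, 33 were tested. Over all genes, edgeR called 0.412% (0.127% lower and 0.285% higher) and DESeq2 called 302 genes. Of the 33, edgeR called 2, both lower, namely Cd276 and Gm49759. DESeq2 also called Islr2, which was higher in PKM2ΔMAC (log2 fold change 2.82, adjusted p = 0.0132, against 0.163 in edgeR) at a mean of 0.0697 CPM in controls and 0.495 CPM in PKM2ΔMAC. Islr2 was named after its values were seen. Gm49759 (log2 fold change -1.12 ± 0.08 (SE), edgeR adjusted p = 0.000631) lies inside Pkm on the same strand, so its reads cannot be separated from those of Pkm here. The median of the 33 genes was -0.02. At an unadjusted p under 0.05 there were 11 of the 33, where 9.83% of all genes were below it, and ranges were apart for 8 in the lower direction and 3 in the higher, where the shares of all genes were 8.32% and 8.92%. On the side of Cd276 away from Pkm, Insyn1 had a fold change of 0.15 ± 0.18 (SE, edgeR adjusted p = 0.846). On the side toward Pkm, Nptn had 0.005 ± 0.042 (adjusted p = 0.983). Rec114 had -0.91 (adjusted p = 0.265) at 2.41 CPM in controls, with 1.28 CPM in PKM2ΔMAC. Insyn1 and Nptn, the nearest tested genes on either side, thus did not differ measurably between genotypes. Rec114, the next one, had an estimate close to that of Cd276 at a lower level, and did not pass either. Among the 21 genes called lower in all, Cd276 had the 8th largest fall, and by p-value it was the 31st of all genes, beside Pkm as the 29th.

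**Figure D4:**
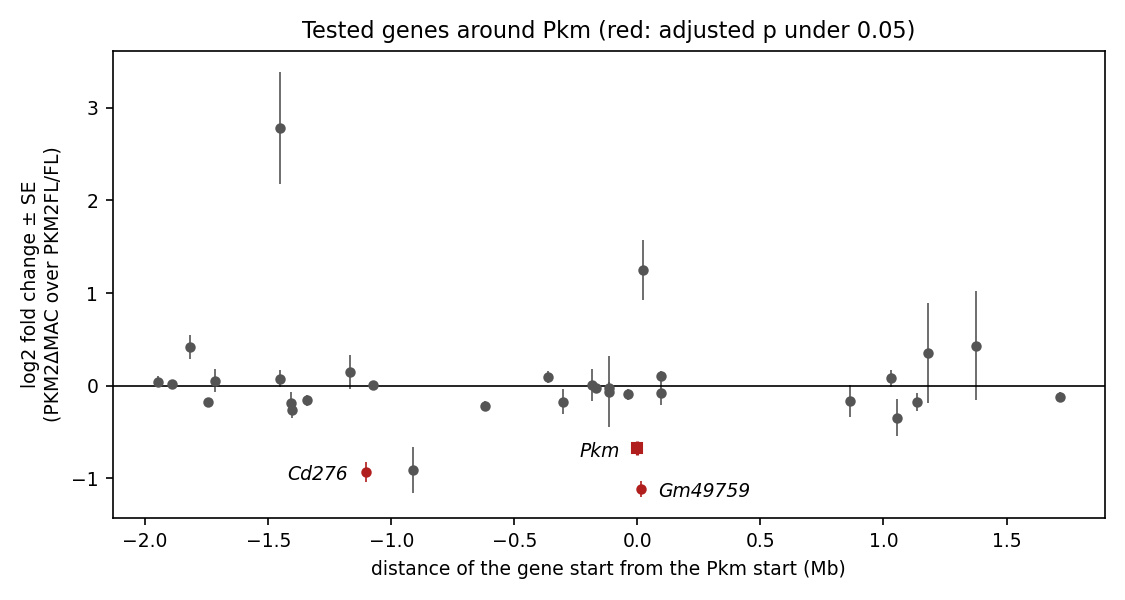
Log2 fold change ± SE of 33 tested genes that start within 2 Mb of Pkm, and of Pkm itself (square), against the distance of their start from that of Pkm, with red for an adjusted p under 0.05. Cd276 and Gm49759 are the 2 red points besides Pkm, while Rec114 lies close to Cd276 in height and a few low-count genes lie above 0 with wide errors.

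Neither ligand of PD-1 passed the test. PD-L1 transcript (Cd274, chr19:29367455-29388095, plus strand) was measured at 26.4, 20.9 and 26.9 CPM in controls 1 to 3, while PKM2ΔMAC libraries 1 to 3 gave 30.0, 17.0 and 24.5 CPM. The highest and the lowest library both belonged to PKM2ΔMAC. The fold change was -0.05 ± 0.22 (SE) on the log2 scale with an interval from -0.61 to 0.50 (edgeR adjusted p = 0.966), so these libraries leave room for a PD-L1 transcript level 0.657 to 1.41 times that of the controls. With 1 library left out the estimate ran from -0.25 (without PKM2ΔMAC replicate 1) to 0.14 (without PKM2ΔMAC replicate 2). Pdcd1lg2, which begins 22824 bases downstream of Cd274 (chr19:29410919-29471161), was the lowest member. Its counts were 24, 14 and 14 in PKM2FL/FL and 20, 10 and 25 in PKM2ΔMAC, and at this depth counting error is a large part of the spread. The fold change of 0.09 ± 0.47 (SE) has an interval from -0.99 to 1.16 (adjusted p = 0.974), which includes changes of either sign, and with 1 library left out the estimate ran from -0.25 to 0.40. Per transcript length, Cd274 exceeded Pdcd1lg2 by 31.8, 42.0 and 52.8 times in PKM2FL/FL and by 43.1, 50.5 and 26.4 times in PKM2ΔMAC. The ratios of the genotypes overlapped, and the difference of -0.10 in log2 ratio gave p = 0.70 in a two-sided exact permutation test. It turned to 0.18 without PKM2ΔMAC replicate 3 and to 0.078 without PKM2FL/FL replicate 3.

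CD80 and CD86, the shared ligands of CD28 and CTLA-4, come from genes 1.79 Mb apart on chromosome 16. Cd80 (chr16:38455561-38496335) was at 5.04, 5.52 and 6.48 CPM in controls 1 to 3, with 3.26, 5.50 and 5.30 CPM in PKM2ΔMAC libraries 1 to 3. The low value of PKM2ΔMAC replicate 1 stood apart from the others, which overlapped with the controls. Its fold change was -0.28 ± 0.21 (SE), with an interval from -0.75 to 0.19 (edgeR adjusted p = 0.723), and with 1 library left out it ran from -0.41 (without PKM2ΔMAC replicate 2) to -0.07 (without PKM2ΔMAC replicate 1). Cd86 (chr16:36603869-36666081), a common surface marker of pro-inflammatory macrophages, was at 11.2, 13.5 and 12.9 CPM in the controls, with 12.7, 11.2 and 11.6 CPM in PKM2ΔMAC. This is the tightest estimate among the co-stimulatory ligands, at -0.09 ± 0.10 (SE) with an interval from -0.31 to 0.13 (adjusted p = 0.828). The Cd86 transcript thus lay between 0.807 and 1.10 times the control level within that interval. With 1 library left out the estimate ran from -0.16 to -0.03. The ratio of Cd80 to Cd86 in TPM was 0.446, 0.404 and 0.495 in PKM2FL/FL and 0.255, 0.485 and 0.453 in PKM2ΔMAC, so Cd86 exceeded Cd80 in all 6 libraries. The ratio did not pass the two-sided exact permutation test between genotypes (difference -0.22 in log2, p = 0.70), and without PKM2ΔMAC replicate 1 the difference was 0.070.

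Icosl, the ligand of the T cell co-stimulator ICOS (chr10:78069302-78083913), showed the largest contrast in spread. PKM2FL/FL libraries were at 14.2, 15.1 and 15.1 CPM, and PKM2ΔMAC libraries at 12.2, 18.8 and 9.33 CPM. Both extremes were PKM2ΔMAC libraries, on either side of all 3 controls. The coefficient of variation was 3.61% in PKM2FL/FL and 36.1% in PKM2ΔMAC, and the fold change of -0.14 ± 0.25 (SE) had an interval from -0.74 to 0.47 (edgeR adjusted p = 0.905). Without PKM2ΔMAC replicate 3 the estimate was 0.065, and without PKM2ΔMAC replicate 2 it was -0.46 ± 0.11 (SE, edgeR adjusted p = 0.0762).

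Vsir, which encodes VISTA, an inhibitory B7 protein of myeloid cells, was by far the most abundant member. Controls 1 to 3 held 680, 661 and 710 CPM of this transcript (chr10:60346851-60372684), and PKM2ΔMAC libraries held 735, 668 and 732 CPM, so that the ranges overlapped. The fold change was 0.06 ± 0.05 (SE) with an interval from -0.06 to 0.18 (edgeR adjusted p = 0.784), which places the Vsir level between 0.958 and 1.13 times that of controls. With 1 library left out the fold change ran from 0.03 to 0.10. On the TPM scale the ranges did separate, at 468 to 494 TPM in PKM2FL/FL and 508 to 532 TPM in PKM2ΔMAC. That scale moves with Lyz2, which took 4.48% to 4.96% of all TPM in PKM2FL/FL and 0.00705% to 0.00876% in PKM2ΔMAC, and the median log2 fold change of all genes was 0.06 on log2(TPM + 1). With TPM recalculated without Lyz2 the median was -0.002, and the Vsir ranges of 492 to 520 TPM and 508 to 532 TPM overlapped. The fold changes given for genes compare genotypes on counts, and TPM values of the genotypes set side by side carry this shift.

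Cd40, the receptor through which T cells carrying CD40 ligand activate macrophages by way of NF-κB (chr2:165055627-165072948), was at 6.37, 8.70 and 7.80 CPM in the controls, with 7.27, 8.07 and 5.66 CPM in PKM2ΔMAC. The libraries interleaved. Its fold change was -0.12 ± 0.16 (SE), with an interval from -0.49 to 0.25 (edgeR adjusted p = 0.858), and with 1 library left out it ran from -0.24 (without PKM2FL/FL replicate 1) to 0.0093 (without PKM2ΔMAC replicate 3). Havcr2, the gene of the inhibitory receptor Tim-3 on T cells and myeloid cells (chr11:46454935-46481255), was at 12.2, 11.7 and 14.0 CPM in the controls, with 9.71, 12.5 and 9.69 CPM in PKM2ΔMAC. In 2 of the PKM2ΔMAC libraries Havcr2 was below every control, and in replicate 2 it was among them. Havcr2 had the lowest p of the members after Cd276 (edgeR adjusted p = 0.548), with a fold change of -0.25 ± 0.12 (SE) and an interval from -0.53 to 0.03. With 1 library left out it ran from -0.38 (without PKM2ΔMAC replicate 2, edgeR adjusted p = 0.108) to -0.17.

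The order of transcript levels per length was alike in both genotypes apart from Cd276. In PKM2FL/FL it ran from Vsir (477 ± 14.3 TPM, SD, n = 3) through Cd274 (23.9 ± 2.95), Cd276 (19.3 ± 0.576), Havcr2 (16.2 ± 1.43), Cd86 (range 10.6 to 13.1), Icosl (11.2 ± 0.500), Cd40 (7.84 ± 1.29) and Cd80 (5.37 ± 0.692) to Pdcd1lg2 (0.591 ± 0.177). Every neighbour in this order was apart in range except Cd86 and Icosl. In PKM2ΔMAC, the mean of Cd276 (10.6 ± 1.28 TPM) moved below those of Havcr2 (14.4 ± 2.65), Cd86 (range 11.4 to 12.5) and Icosl (10.8 ± 4.26). There the ranges of Cd86 and Icosl and those of Icosl and Cd276 overlapped. Icosl was above Cd276 in 1 of 3 PKM2ΔMAC libraries, replicate 2 (15.5 TPM against 9.21 TPM). By library, Cd276 ranked 3rd of 9 in each PKM2FL/FL library and 5th, 6th and 5th in PKM2ΔMAC replicates 1 to 3. Among all tested genes, the mean TPM of Vsir stood at percentile 98.5, Cd274 at 63.7, Cd276 at 53.4 and Pdcd1lg2 at 9.92. Vsir made up 82.9% to 83.5% of the summed TPM of the 9 genes in PKM2FL/FL and 85.4% to 86.9% in PKM2ΔMAC.

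Spread between mice was wider in PKM2ΔMAC for most of these genes. The SD of log2 CPM was larger in PKM2ΔMAC than in PKM2FL/FL for 8 of 9 members, with Cd86 as the exception, and for 63.5% of all tested genes. The median SD of the members was 0.144 in PKM2FL/FL and 0.259 in PKM2ΔMAC, while over all genes it was 0.0935 and 0.130. PKM2ΔMAC replicate 2 was at an end of its genotype for every member. It was lowest for Cd274, Pdcd1lg2, Cd276, Cd86 and Vsir and highest for Cd80, Icosl, Cd40 and Havcr2. With 3 libraries per genotype an end position is common, and its share over all genes was not counted. That library also had the highest Pkm of its genotype, 1212 CPM against 987 and 1005 CPM in replicates 1 and 3. The interferon-γ response genes of that library summed to 5960 TPM, against 3300 and 4070 TPM in PKM2ΔMAC replicates 1 and 3 and 4020 to 4370 TPM in PKM2FL/FL, and its LPS response genes to 1160 TPM, against 869 and 803 TPM and 880 to 967 TPM. Few genes make up most of these sums. Without Cd74 and 3 H2 genes, the other 17 interferon-γ response genes summed to 668 TPM in that library, against 597 and 496 TPM and 526 to 583 TPM, and without Cd14 the other 15 LPS response genes to 115 TPM, against 78.4 and 76.0 TPM and 70.6 to 77.6 TPM. These sums without their top genes were added after seeing the data. Their part in the spread was not tested.

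**Figure D5:**
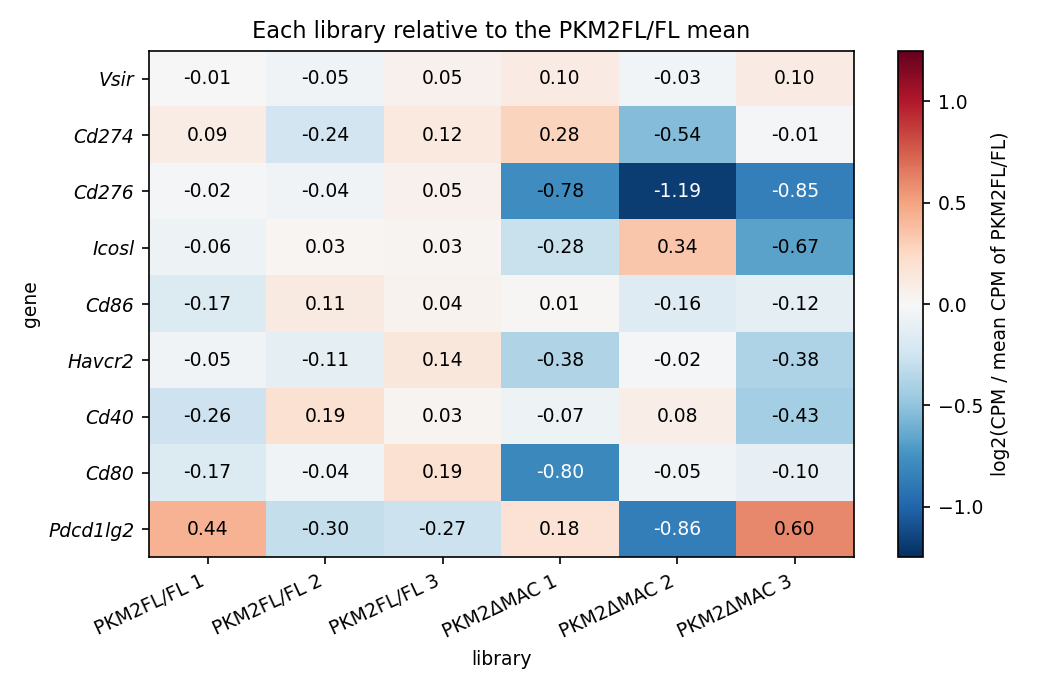
Log2 ratio of the CPM of each library to the PKM2FL/FL mean, for 9 genes (rows) and 6 libraries (columns), with blue for lower and red for higher. The Cd276 row is below 0 in all 3 PKM2ΔMAC libraries (-0.78, -1.19 and -0.85), and so are the rows of Cd80 (-0.80, -0.05 and -0.10) and Havcr2 (-0.38, -0.02 and -0.38), each with at least 1 library near 0. Other rows hold both signs there, such as Icosl at -0.28, 0.34 and -0.67.

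Genes that act with these ligands were read from the same fit. Of 33 listed receptors, partners and other checkpoint molecules, 29 were in the tables and 25 were tested, of which 0 were called by edgeR. Over all genes edgeR called 0.412%, so 0 calls say little of a list of this size. At an unadjusted p under 0.05 there were 5 of the 25, while 9.83% of all genes were below it. CPM ranges of the genotypes were apart for 4 in the higher direction and 5 in the lower. The shares of all genes were 8.92% and 8.32%. DESeq2, which called 302 over all genes, called 1 of the 25. The median fold change of the 25 was 0.01, with 13 genes above 0 and 12 below. The most abundant were Lgals3, the gene of galectin-3, with a log2 fold change of -0.16, Sirpa, the receptor of the CD47 signal, with 0.01, and Cd48, a ligand of the SLAM family, with -0.13 (adjusted p of 0.706, 0.974 and 0.311). Cd28, the receptor of CD80 and CD86, was detected in the BMDM libraries themselves at 51.1 ± 2.18 TPM in PKM2FL/FL and 49.4 ± 8.17 TPM in PKM2ΔMAC (n = 3 each), while Pdcd1, the gene of PD-1, had 0 to 6 counts per library. The single gene that DESeq2 called was Vsig4, an inhibitory receptor of the B7-related group on macrophages, with 16 to 97 counts per library, a fold change of 1.65 and an adjusted p of 0.0120, against 0.220 in edgeR. Cd28, Pdcd1 and Vsig4 were singled out after their values were seen.

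The pathway from IFN-γ to PD-L1 also held 0 called genes among 23 tested in edgeR. As edgeR called 0.412% of all genes, 0 calls say little of a list of 23. Of them 11 were above 0 and 12 below, with a median of -0.002. At an unadjusted p under 0.05 there were 3 of the 23, against 9.83% of all genes. CPM ranges were apart for 0 in the higher direction and 4 in the lower, against 8.92% and 8.32% of all genes. DESeq2, which called 302 over all genes, called 1 of the 23. Ifngr1, a chain of the IFN-γ receptor, was at 291 ± 13.0 TPM in PKM2FL/FL and 231 ± 21.5 TPM in PKM2ΔMAC (n = 3 each), with a log2 fold change of -0.40 ± 0.07 (SE) and an edgeR adjusted p of 0.0715. That value is close to the threshold, and Ifngr1 was called by DESeq2 (adjusted p = 0.000239), without the filter on low counts (0.0269) and without PKM2ΔMAC replicate 1 (0.00986). Ptpn6, a phosphatase that dampens receptor signals, had a fold change of 0.11 (adjusted p = 0.575), and Cmtm6, which protects PD-L1 protein from degradation, had 0.03 (adjusted p = 0.867). The other genes of the list at an unadjusted p under 0.05 were Irf8, a transcription factor of the macrophage lineage, with -0.17 (edgeR adjusted p = 0.232), and Stat3, a cytokine-activated transcription factor, with -0.09 (adjusted p = 0.472). Jak2 had 0.02, Irf1 -0.01 and Hif1a -0.07, with adjusted p between 0.699 and 0.970. These 5 genes were singled out after their values were seen.

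Of 20 genes of CD40 and NF-κB signalling, 0 were called by edgeR, with a median of 0.001, 11 above 0 and 9 below. The share called over all genes was 0.412%, so 0 calls say little here too. At an unadjusted p under 0.05 there were 2 of the 20, against 9.83% of all genes. CPM ranges were apart for 0 in the higher direction and 4 in the lower, against 8.92% and 8.32% of all genes. DESeq2, which called 302 over all genes, called 1 of the 20. Nfkbia, the gene of the inhibitor IκBα, was at 183 ± 12.7 and 193 ± 20.3 TPM (n = 3 each), with an edgeR adjusted p of 1.00. Rela, the p65 subunit, had a fold change of -0.07 and Nfkb2, the p100 precursor, 0.12, with adjusted p of 0.586 and 0.846. Traf1, an adaptor of CD40 and related receptors, was at 4.17 ± 0.145 and 2.98 ± 0.370 TPM (n = 3 each). Its log2 fold change was -0.56 ± 0.10 (SE), with an edgeR adjusted p of 0.0864. It was called by DESeq2 (adjusted p = 0.000677), without the filter on low counts (0.0393) and without PKM2ΔMAC replicate 2 (0.0231), and it was singled out for this after its values were seen.

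The genes most like Cd276 and Cd274 across the 6 libraries were found by Pearson correlation of log2(CPM + 0.1) over 13076 genes with a mean of at least 1 CPM. For Cd276 they were As3mt (r = 0.998), Zfp385a (0.993) and Slc35d2 (0.991). As3mt was at 6.54 to 7.24 CPM in controls, with 3.82 to 4.64 CPM in PKM2ΔMAC, and its log2 fold change of -0.67 had an edgeR adjusted p of 0.0740. Zfp385a and Slc35d2 were also lower in all 3 PKM2ΔMAC libraries than in every control, with smaller differences, of -0.09 and -0.20. For Cd274 they were Ccnc (0.993), Arhgap24 (0.992) and Tmod1 (0.991), with fold changes of -0.02, -0.02 and -0.06. Of the 13076 genes, 97 exceeded 0.95 for Cd276 and 91 for Cd274. The points are only 6 libraries, and for Cd276 they fall into the 2 genotypes, so these values are a description.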

How the data were processed

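RNA of 6 BMDM cultures was sequenced by the authors. The authors deposited raw read counts per gene symbol and TPM values of the same libraries; 0 columns were left without a sample. The submitters' processing notes name FastQC 0.12.1, Trim Galore 0.6.10, HISAT2 2.2.1, SAMtools 1.19.2, Subread 2.0.6 and mm10. The annotation and strand setting are not given in the sources used here, so reads of overlapping genes may be shared. Counts were tested with edgeR 4.0.16 (R 4.3.3, limma 3.58.1), using filterByExpr, TMM, genotype as the only term, robust quasi-likelihood estimation and Benjamini-Hochberg adjustment over 16516 genes. A gene was called at an adjusted p under 0.05. Dividing the size of a log2 fold change by √F gave its SE. Single values were tested with two-sided exact permutation tests on log2(CPM + 0.1) or log2 TPM ratios. Totals of 49957449 to 54524651 counts limit the precision of Pdcd1lg2 (10 to 25 counts) more than that of the other members (173 counts or more). Functions were tested on simulated data. Positions came from GENCODE on GRCm38 and promoters from RefSeq. The 10 genes and the gene lists were chosen with earlier results of these data known. Named genes were the 10, Pkm, Lyz2, called list members, the 3 most abundant genes of each partner, pathway and response list, the 3 genes most like Cd274 and Cd276, and some cell type markers. Further genes were named by their position beside Cd276, by their role or after their values were seen. Alternatives included DESeq2 1.42.0, other scalings and filters, and limma-trend on the deposited TPM, where fold changes understate those of low genes.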

Additional observations from a re-analysis of the deposited data

How the results depend on the processing

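With 3 mice per genotype, intervals are wide, and Pdcd1lg2 is limited by its depth of 10 to 25 counts. Genes called over all genes numbered 68 in the edgeR test, 120 with no filter on low counts, 302 with DESeq2, 41 on log2(TPM + 1), 34 on log2(TPM + 0.1), 36 on log2(TPM + 1) with no filter, 33 with TPM rescaled without Lyz2, an alternative chosen after seeing the data, and 22 to 299 with 1 library left out (299 without PKM2ΔMAC replicate 2, and 26, 27 and 22 without PKM2FL/FL replicates 1, 2 and 3). Members called remained 1, Cd276, except on log2(TPM + 1) with no filter, where 0 were called (Cd276 -0.81, adjusted p = 0.0541), and without each PKM2FL/FL library (0 to 1 over the libraries left out). The cause was not tested. The Cd276 fold change was between -1.01 and -0.81 over 17 alternatives. Partner genes called were 1 with DESeq2. IFN-γ to PD-L1 pathway genes called were 1 with no filter, 1 with DESeq2 and 0 to 1 with 1 library left out, and CD40 and NF-κB genes 1, 1 and 0 to 2. Without PKM2ΔMAC replicate 2, edgeR called Traf1, Tnfaip3, Ciita of the interferon-γ response genes and Acod1 of the LPS response genes. Each check list thus ran from 0 to 1 with 1 library left out. The stromal marker Col1a1 (0.36, adjusted p = 0.0307) and the macrophage marker Adgre1 (0.18, adjusted p = 0.0414) were also called by edgeR without that library. Genes called within 2 Mb of Pkm were 1 on log2(TPM + 1) with no filter and 1 to 4 with 1 library left out (1 without each PKM2FL/FL library, 4 without PKM2ΔMAC replicate 2). With 1 library left out, estimates crossed 0 for Cd274 (-0.25 to 0.14), Pdcd1lg2 (-0.25 to 0.40), Icosl (-0.46 to 0.065) and Cd40 (-0.24 to 0.0093), and for the log2 ratios of Cd80 to Cd86 (-0.39 to 0.070) and Cd274 to Pdcd1lg2 (-0.29 to 0.18). Pkm kept its direction in all 17 alternatives (-0.78 to -0.61) and was above the threshold in 7, namely those on TPM and those without a PKM2FL/FL library. The replicate numbers were not used as pairs in the main test. Deviations of libraries with the same number correlated at 0.0797, 0.141 and 0.0188, and those with different numbers at -0.124 to 0.067. PKM2ΔMAC replicates 1 and 2 correlated best with the PKM2FL/FL library of their own number, and replicate 3 with PKM2FL/FL replicate 1. A replicate block gave 82 calls in all, 1 member (Cd276, -0.94, adjusted p = 0.00782), 0 in the partner, pathway and response lists, the neutrophil marker S100a8 (1.86, adjusted p = 0.0110) and 2 within 2 Mb of Pkm, and Cd274 at -0.08.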

Other observations

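Partners of Tim-3 were looked at by role after the values were seen. Lgals9, the gene of galectin-9, was at 133 ± 4.85 TPM in PKM2FL/FL and 127.5 ± 20.4 TPM in PKM2ΔMAC (n = 3 each), and Ceacam1 was at 11.2 ± 0.794 and 12.5 ± 1.80 TPM, with log2 fold changes of -0.14 and 0.09 (edgeR adjusted p of 0.731 and 0.870). Hmgb1, a nuclear protein that also binds Tim-3 when released, was at 43.8 ± 0.201 and 51.9 ± 2.86 TPM, with a log2 fold change of 0.17 ± 0.04 (SE) and an edgeR adjusted p of 0.225. Of the TNF family co-stimulators, Tnfsf9, the gene of 4-1BB ligand, was at 9.16 ± 1.09 and 11.1 ± 3.37 TPM, and Tnfsf14, the gene of LIGHT, at 6.80 ± 0.381 and 6.05 ± 0.134 TPM (n = 3 each). None of these 5 genes passed the edgeR test across all genes.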
